A study of Homo sapiens with 4 samples.

Results

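Insulin-like growth factor binding proteins (IGFBPs) were followed across 4 RNA-seq libraries of U87MG and U251, established human glioblastoma cell lines. The 6 genes IGFBP2, IGFBP3, IGFBP4, IGFBP5, IGFBP6 and IGFBP7 were taken by symbol from a table of 40205 genes and other transcripts. They were put together with their values known, so their levels between the lines and their knockdown ratios below are a description and carry no test. Each line had received a lentiviral hairpin, either the control hairpin sh-NC, in the libraries labelled WT, or sh-SRSF1, in the libraries labelled KD. SRSF1 is a serine/arginine-rich splicing factor. Infection was at a multiplicity of 20 in all cells, followed by 1 week of puromycin selection, so the controls carry a virus and a hairpin too. There was 1 library per line and arm, and the labels name neither separate infections nor clones.

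IGFBPs are secreted proteins that hold insulin-like growth factors (IGFs) outside the cell, which limits or prolongs the action of IGF1 and IGF2 on the receptor IGF1R. IGFBP2 to IGFBP6 bind IGFs with high affinity. IGFBP7 binds them weakly and is often called an IGFBP-related protein. Proteases such as pappalysin release the ligand by cutting the carrier, and several family members also act on integrins or the matrix without IGF. In glioma, IGFBP2 is known as a gene of high-grade tumours and IGFBP7 as a gene of tumour vessels.

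In GRCh38 (GENCODE 29) the genes lie on 5 chromosomes. IGFBP2 (chromosome 2, 216632828 to 216664436, forward strand) and IGFBP5 (chromosome 2, 216672105 to 216695525, reverse strand) are neighbours with 7668 bases and no protein-coding gene between them. IGFBP3 (chromosome 7, 45912245 to 45921874, reverse strand) stands 18576 bases from IGFBP1 in the same tail-to-tail arrangement. IGFBP4 is on chromosome 17 (40443461 to 40457731, forward), IGFBP6 on chromosome 12 (53097436 to 53102345, forward) and IGFBP7 on chromosome 4 (57030773 to 57110385, reverse). Few or no 31-base words of their longest transcripts occur in another annotated gene, with a share of 0.046 for IGFBP2 and 0 for the other 5.

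The stretches before the starts of IGFBP4 and IGFBP5 are shown because both genes were near-silent in U87MG, were read in U251, and had ratios on opposite sides of 1 in the U251 knockdown. Each run is the 250 bases upstream of the RefSeq start (GRCh38.p14), on the strand of the gene, and overlaps no exon of GENCODE 29. Capitals mark matches on either strand to TATAAA, the core bound by the TFIID complex, to GGGCGG, the core bound by Sp1, or to CCAAT, the pentamer bound by NF-Y.
IGFBP4 (chr17:40443200-40443449, forward): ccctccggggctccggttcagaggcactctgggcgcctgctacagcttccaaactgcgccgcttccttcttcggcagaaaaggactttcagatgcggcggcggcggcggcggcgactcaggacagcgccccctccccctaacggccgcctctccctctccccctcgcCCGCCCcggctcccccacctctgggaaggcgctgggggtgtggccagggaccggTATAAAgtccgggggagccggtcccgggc
IGFBP5 (chr2:216695550-216695799, reverse): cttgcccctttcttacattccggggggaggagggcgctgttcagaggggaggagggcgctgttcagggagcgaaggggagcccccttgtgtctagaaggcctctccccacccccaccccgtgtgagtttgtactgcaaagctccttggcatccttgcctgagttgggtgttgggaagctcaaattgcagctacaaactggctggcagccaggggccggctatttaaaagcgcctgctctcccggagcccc
The IGFBP4 window holds 1 TATAAA match, 1 GGGCGG match and 24 CpG dinucleotides. The IGFBP5 window has 8 CpG dinucleotides and no match to these 3 motifs, which says only that those letters are not in it. Of all 35116 RefSeq windows of this length, 10.7% match TATAAA, 42.6% match GGGCGG and 32.0% match CCAAT, and the median CpG count is 11.

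The libraries held 25099799 to 27953878 reads each, recovered from the steps between low values. Values are RPKM (reads scaled to the length of the gene model and the size of the library), and 1 read in a gene of 1 kilobase was worth 0.0358 to 0.0398 RPKM. Where a pair of values is given for a line, the control comes first and the knockdown second. SRSF1 itself was at 0.166 times its control level in the U87MG knockdown and at 0.145 times in U251 (95% Clopper-Pearson intervals 0.158 to 0.173 and 0.139 to 0.151). These and all intervals below cover counting error only. Of 9 glial and glioma markers 4 to 6 reached 1 RPKM per library, with AQP4 at 0 throughout and GFAP at 1.47 RPKM at most. SOX2, a neural stem cell factor, was at 47.9 and 49.3 RPKM in U251 and at 0.121 and 0.0460 RPKM in U87MG. NES of the same list also stood higher in U251, at 61.1 and 83.7 RPKM, against 1.79 and 1.29 RPKM in U87MG. OLIG2 went the other way, at 0.0146 and 0.0263 RPKM in U251 and at 0.936 and 2.46 RPKM in U87MG. No endothelial, immune or epithelial marker reached 1 RPKM in any library, and CLDN5, CD3E and the neuronal marker RBFOX3 were at 0 in all 4. The neuronal markers SYT1 and SNAP25 were above 1 RPKM in every library, with summed neuronal levels of 4.56 to 8.45 RPKM.

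The first question was how the control libraries of the 2 lines compare. The lines had different leading IGFBP genes. As in all bulk libraries, fewer expressing cells and less RNA per cell cannot be told apart. In the U87MG control IGFBP6 made up 92.1% of the summed RPKM of the 6 genes, and in the U251 control IGFBP7 made up 71.8% and IGFBP2 19.1%. The summed control level was 236 RPKM for U87MG and 444 RPKM for U251. On the scale of log2(RPKM + 1), 4 genes (IGFBP2, IGFBP4, IGFBP5 and IGFBP7) were at least 2-fold lower in U87MG and 1 (IGFBP6) at least 2-fold higher, while 12.1% and 9.48% of the 16098 genes tested were past 2-fold in these directions. The contrast chose the genes, so the counts are given only beside that background.

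**Figure D1:**
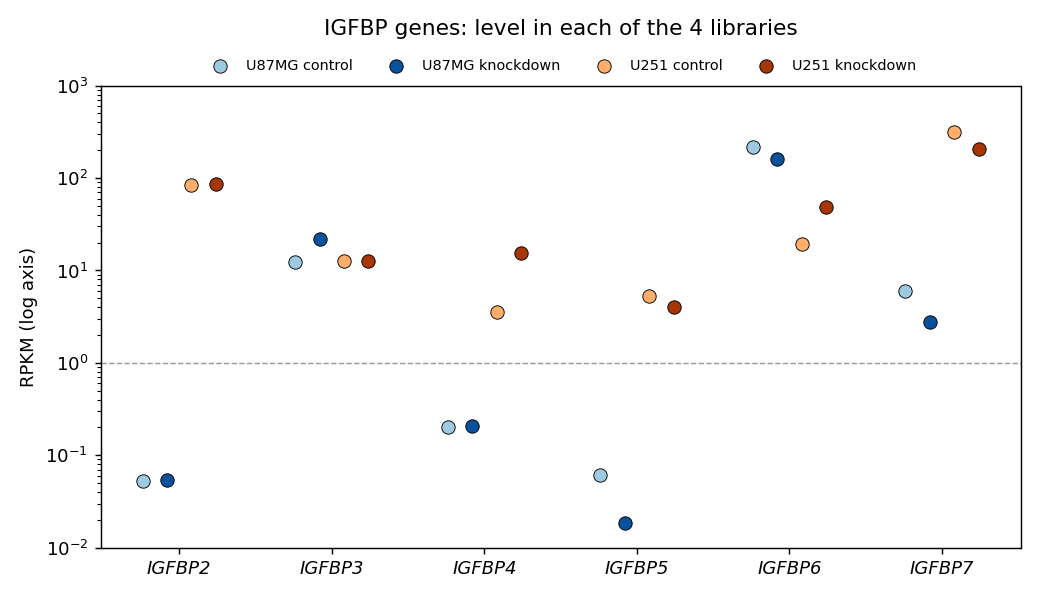
Level of each IGFBP gene in RPKM on a log axis, with 1 point per library and a dashed line at 1 RPKM. IGFBP2, IGFBP4 and IGFBP5 lie below the line in both U87MG libraries and above it in both U251 libraries, IGFBP6 is highest in U87MG, and IGFBP3 is alike in the 2 controls.

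**Figure D2:**
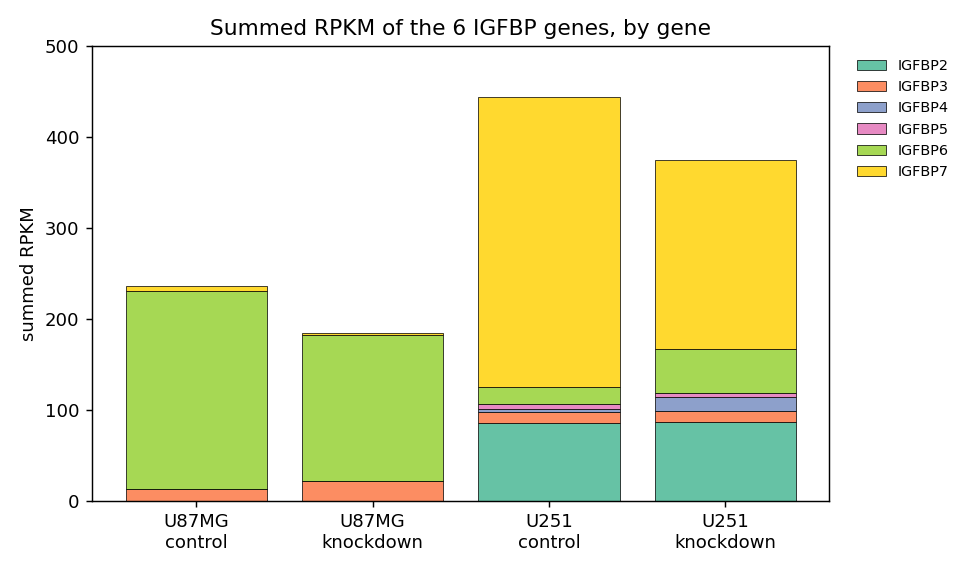
Summed RPKM of the 6 IGFBP genes in each library, with 1 colour per gene. The U87MG bars (236 and 185 RPKM) are mostly IGFBP6, and the U251 bars (444 and 374 RPKM) mostly IGFBP7 and IGFBP2.

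IGFBP2, which also carries an integrin-binding motif, was strongly expressed in U251, with 85.0 RPKM for the control hairpin and 86.0 RPKM for the SRSF1 hairpin. The U87MG values were 0.0532 and 0.0538 RPKM, which is 2 reads in each library against 3051 and 3437 reads in U251. All U251 values were thus far above all U87MG values. The control ratio of U251 to U87MG was 1598, with an interval of 442 to 13200 that is wide because of the 2 reads. On the log2(RPKM + 1) scale the difference was 6.35, and 7 of the 16098 genes, IGFBP2 included, lay at least as low in U87MG against U251.

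IGFBP5, a carrier that binds the extracellular matrix, is the downstream neighbour of IGFBP2. The U251 values were 5.23 and 3.97 RPKM, against 0.0609 and 0.0185 RPKM for U87MG. The U87MG values rest on 10 and 3 reads. Both neighbours were higher in U251 than in U87MG, although IGFBP2 exceeded IGFBP5 by RPKM in both U251 libraries. The control ratio of U251 to U87MG was 85.8 for IGFBP5 (46.4 to 180).

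IGFBP1, the neighbour of IGFBP3 and a carrier made mostly by the liver, had the opposite pattern at a low level. The U87MG values were 0.737 and 1.17 RPKM, from 16 and 25 reads, and had no read in either U251 library. Zero reads allow up to 0.145 RPKM in the U251 control (3 reads in that library), and the counting interval of the control ratio of U87MG to U251 starts at 3.68. IGFBP3, the main carrier of IGF in serum, did not share this difference. Its control levels were 12.4 RPKM for U87MG and 12.6 RPKM for U251, a ratio of U87MG to U251 of 0.989 (0.898 to 1.09).

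IGFBP4, an inhibitor of IGF action that pappalysin cuts, had control levels of 3.55 RPKM for U251 and 0.204 RPKM for U87MG, from 199 and 12 reads. The ratio of U251 to U87MG was 17.4 (9.73 to 34.2). The knockdown levels were 15.3 RPKM for U251 and 0.207 RPKM for U87MG, and their ratio was 73.9 (42.1 to 144). The lines were therefore further apart on IGFBP4 with the SRSF1 hairpin than with the control hairpin.

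IGFBP6, which prefers IGF2 over IGF1, was the highest IGFBP gene of U87MG, with 218 and 160 RPKM, against 19.1 and 48.3 RPKM for U251. Among 19784 mRNA genes it ranked 206 in the U87MG control and 3329 in the U251 control. The ratio of U87MG to U251 was 11.4 between the controls (10.4 to 12.6) and 3.31 between the knockdowns (3.11 to 3.52), so here the lines were closer together with the SRSF1 hairpin.

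IGFBP7 was the highest IGFBP gene of U251, with 319 and 208 RPKM, against 6.06 and 2.76 RPKM for U87MG. It ranked 100 among mRNA genes in the U251 control and 6814 in the U87MG control. The control ratio of U251 to U87MG was 52.6 (45.4 to 61.3). Since IGFBP7 is known from endothelium, the 4 endothelial markers were read beside it. PECAM1, CDH5, VWF and CLDN5 together came to 0.498 and 0.197 RPKM for U251 and to 0.164 and 0.133 RPKM for U87MG, with CLDN5 at 0. On the opposite strand, POLR2B overlaps the IGFBP7 gene by 396 bases, the pseudogene UBE2CP3 by 450 bases and IGFBP7-AS1 by 624 bases. The IGFBP5 gene is likewise overlapped by the antisense gene AC007563.2, by 1062 bases. Whether counting used strand is not given in the sources used here. POLR2B stood at 65.8 and 80.5 RPKM for U87MG, against 182 and 242 RPKM for U251. Between the lines it was higher in U251, as IGFBP7 was, and within each line it was higher in the knockdown, where IGFBP7 was lower. Whether reads of POLR2B enter the IGFBP7 values was not tested. IGFBP7-AS1, listed by its older symbol LOC255130, had at most 5 reads in a library.

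By RPKM, which is per length, the order in the U87MG control was IGFBP6, IGFBP3, IGFBP7, IGFBP4, IGFBP5 and IGFBP2. The last 3 rest on 12, 10 and 2 reads. In the U251 control the order was IGFBP7, IGFBP2, IGFBP6, IGFBP3, IGFBP5 and IGFBP4. With 1 library per group there is no spread between replicates to set neighbours in these orders against.

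The second question was how the SRSF1 hairpin libraries compare with the control within each line. In U251, IGFBP4 and IGFBP6 were at least 2-fold higher in the knockdown on the log2(RPKM + 1) scale and no IGFBP gene was 2-fold lower. In U87MG none of the 6 was past 2-fold on that scale in either direction. There IGFBP2, IGFBP4 and IGFBP5 were at 0.0532, 0.204 and 0.0609 RPKM in the control, too low to be 2-fold lower on it. By plain RPKM, IGFBP7 (0.456) and IGFBP5 (0.304, from 10 and 3 reads, with an interval that includes 1) were past 2-fold lower there. Over all genes tested, on the log2(RPKM + 1) scale, 1.17% were 2-fold higher and 1.71% lower in U251, and 2.33% higher and 3.58% lower in U87MG. The median log2 ratio of the 6 genes was -0.03 in U87MG and 0.02 in U251, beside -0.05 and -0.00374 over all genes tested. The U87MG median falls between IGFBP5 (-0.059) and IGFBP2 (0.0009), which had at most 10 reads per library there. IGFBP3, IGFBP6 and IGFBP7 were at 0.77, -0.44 and -0.91 in U87MG. The contrasts within the lines also chose the genes, so nothing is read from the counts or medians.

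**Figure D3:**
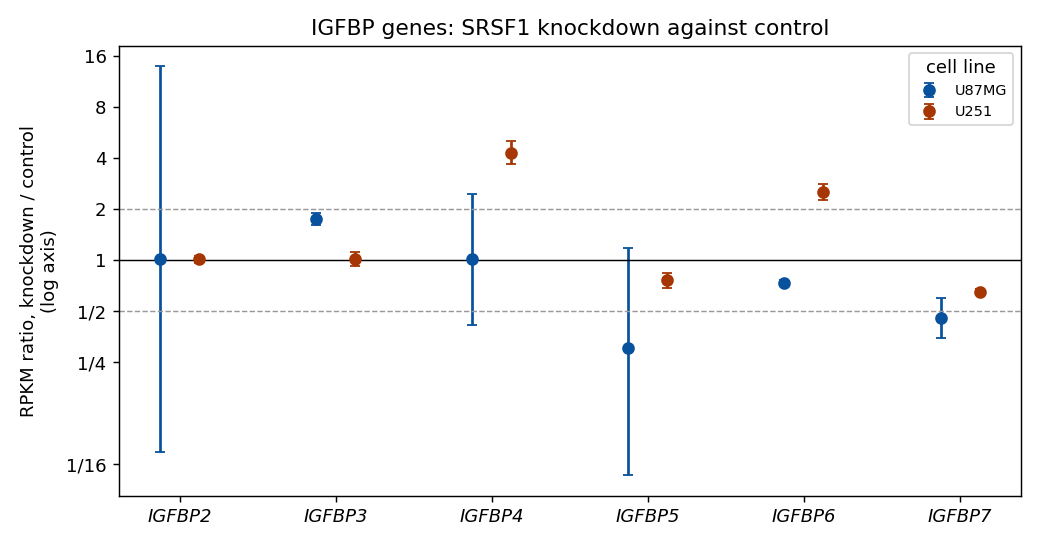
Ratio of knockdown to control RPKM for each IGFBP gene and line on a log axis, with exact 95% counting intervals as bars and dashed lines at 2-fold. IGFBP4 (4.31) and IGFBP6 (2.53) lie above 2 in U251, and IGFBP7 lies below 1 in both lines. In U87MG, IGFBP7 (0.456) and IGFBP5 (0.304, from 10 and 3 reads) lie below the lower dashed line.

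IGFBP4 had the highest knockdown ratio of the family. In U251 its reads went from 199 to 954, and its RPKM was 4.31 times the control level (3.69 to 5.04). On the log2(RPKM + 1) scale the difference was 1.84, and 15 of the 16098 genes, IGFBP4 included, were at least as high. In U87MG both libraries had 12 reads, a ratio of 1.012 with an interval of 0.416 to 2.46. At this depth a ratio within that interval could not be told from 1.

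IGFBP6 had ratios in opposite directions. In U251 the knockdown was at 2.53 times the control (2.27 to 2.82), and in U87MG at 0.734 times (0.705 to 0.765). The log2 ratios were 1.29 and -0.44. Each was beyond counting error, but the difference between the lines, 1.74 on the log2 scale, could not be tested, since 1 library per line and arm leaves no spread for it. Of all genes tested, 1.24% had ratios of opposite sign that were each at least 0.4 from 0.

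IGFBP7 was lower in the knockdown of both lines. Its ratio was 0.456 in U87MG (0.346 to 0.595), where it rests on 180 and 81 reads, and 0.653 in U251 (0.633 to 0.675), where it rests on 9030 and 6571 reads. The log2(RPKM + 1) ratios were -0.91 and -0.61. Averaged over the lines by limma with the line as a block, the estimate was -0.76 ± 0.17 (SE, n = 2 libraries per arm), given here without a test. IGFBP7 was the only one of the 6 with intervals below 1 in both lines.

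IGFBP3 was higher in the U87MG knockdown, with a U251 interval that includes 1. It went from 12.4 to 21.8 RPKM there, a ratio of 1.76 (1.61 to 1.91), and from 12.6 to 12.7 RPKM in U251, a ratio of 1.014 (0.922 to 1.11). The controls were thus alike, and the U87MG knockdown stood apart from the other 3 libraries.

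IGFBP2 had a ratio of 1.011 in U251 (0.963 to 1.06), the narrowest of the intervals that include 1. IGFBP5 had a ratio of 0.760 in U251 (0.686 to 0.842), and of 0.304 in U87MG with an interval of 0.0537 to 1.18 from 10 and 3 reads. In U251 the intervals of the chromosome 2 neighbours do not overlap, so their ratios differed beyond counting error in these libraries. Whether the difference would exceed variation between cultures could not be tested.

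**Figure D4:**
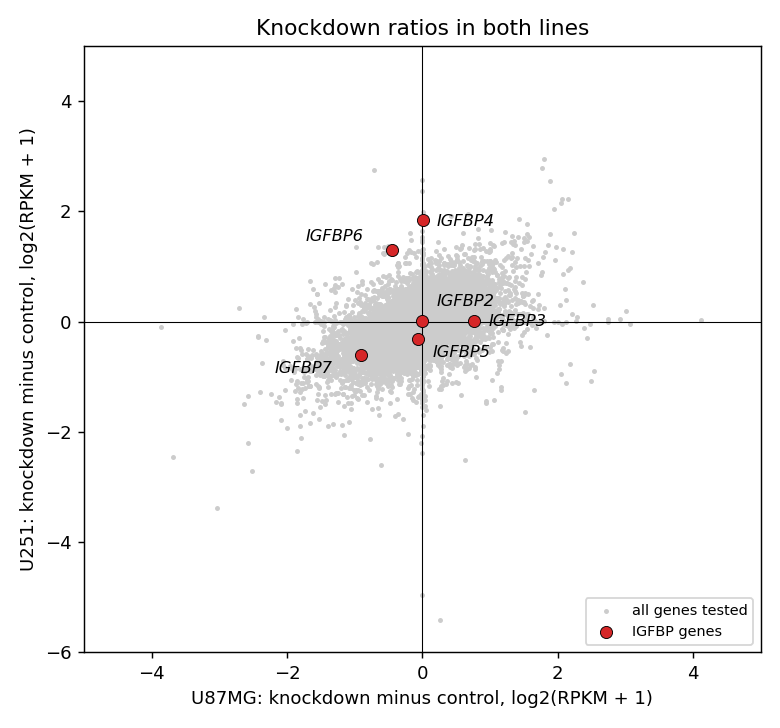
Log2(RPKM + 1) difference between knockdown and control in U87MG (horizontal) and U251 (vertical) for all 16098 genes tested (grey) and the 6 IGFBP genes (red). IGFBP4 lies on the vertical axis at 1.84, IGFBP6 in the upper left at -0.44 and 1.29, and IGFBP7 in the lower left at -0.91 and -0.61.

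The make-up of the family differed between the arms of each line, with the same leading gene in both. In U87MG the IGFBP6 share of the summed RPKM was 92.1% in the control and 86.5% in the knockdown, and that of IGFBP3 5.25% and 11.8%. In U251 the IGFBP7 share was 71.8% and 55.6%, that of IGFBP6 4.30% and 12.9%, and that of IGFBP4 0.798% and 4.08%. The summed level was lower in the knockdown of both lines, at 185 RPKM in U87MG and 374 RPKM in U251.

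The genes whose 4-library profiles were most like each member were sought among mRNA genes with at least 5 RPKM in a library, by Euclidean distance between centred log2(RPKM + 1) values over the 4 libraries. Nearest to IGFBP2 were TENM2, NEFL and SPAG17 (distances 0.354 to 0.447), each under 0.14 RPKM in U87MG and above 58 RPKM in U251. Nearest to IGFBP6 was NT5E (0.286), encoding the ecto-nucleotidase CD73, at 326 and 273 RPKM for U87MG, against 29.4 and 62.6 RPKM for U251, followed by BATF3 and HMGA1. Nearest to IGFBP3 were SNAP23, MPC2 and S100A11 (0.042 to 0.0702). The nearest genes of IGFBP4 were CBS, SOX3 and DENND2A (0.673 to 0.75), and those of IGFBP7 were COL4A2, IFITM1 and EEF1A2 (0.613 to 0.624). These distances were larger than those of the other members. No cut-off for a close match was set, and the distance is not scaled to the range of a profile. IGFBP5 was nearest to USP28, UAP1 and MSI2 (0.0953 to 0.102). The pseudocount of 1 damps ratios at low values, and IGFBP5 had only 10 and 3 reads in U87MG. UAP1 was at 20.6 and 17.9 RPKM for U87MG, against 116 and 94.3 RPKM for U251. MSI2 was at 4.33 and 3.84 RPKM for U87MG, against 29.6 and 25.1 RPKM for U251. UAP1 and MSI2 are thus near IGFBP5 on this scale, but not in their RPKM ratio between the lines.

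The remaining genes of the IGF axis were counted in lists chosen by function, with earlier results of these data known. The counts and p-values below are therefore not independent of the choice of lists. The lists hold 65 genes, of which 46 reached 1 RPKM in at least 1 library. For these, limma with the line as a block called 2 higher and 0 lower in the knockdown (adjusted p under 0.05, Benjamini-Hochberg over all genes tested), beside 1.16% and 2.61% of all genes. Neither of the 2 was called after trimmed-mean rescaling, without the filter on low values or without the block (0 higher in each), and 1 was called without the intensity trend. At an unadjusted p under 0.05 limma gave 13 higher and 3 lower, beside 8.29% and 12.8% of all genes. The median log2 ratios of the 46 were 0.17 in U87MG and 0.15 in U251. Between the lines 20 were called higher and 16 lower in U87MG, beside 21.6% and 27.0% of all genes. With 1 library per line and arm, the limma p-values rest on how far the knockdown ratios of the lines differ, not on replicates.

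The ligands were nearly unread. IGF1 had 5, 0, 5 and 2 reads and IGF2 1, 1, 3 and 0 reads in the U87MG control, U87MG knockdown, U251 control and U251 knockdown, and INS was at 0 in all 4. The cells were grown with fetal bovine serum, which contains IGFs that an RNA library does not show. Of the receptors, IGF1R, the signalling receptor, was at 1.23 and 1.36 RPKM for U87MG, against 4.86 and 4.56 RPKM for U251 (log2 difference U87MG minus U251 -1.32 ± 0.18, SE, n = 2 libraries per line, adjusted p = 0.00073 by limma). IGF2R, which clears IGF2, was at 55.5 and 78.0 RPKM for U87MG, against 34.9 and 41.1 RPKM for U251, a difference of 0.78 ± 0.17 (adjusted p = 0.0063 by limma). INSR, the insulin receptor, was at 1.61 and 2.07 RPKM for U87MG, against 1.73 and 0.936 RPKM for U251. None of these 3 receptors was called between the arms.

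Among the 6 measured receptor substrates and adaptors none was called between the arms. GRB10, an adaptor that restrains insulin and IGF receptors, was at 18.7 and 23.7 RPKM for U87MG, against 9.65 and 21.3 RPKM for U251 (limma 0.70 ± 0.21, adjusted p = 0.115). IRS2, a docking substrate of IGF1R, was at 2.46 and 4.89 RPKM for U87MG, against 2.71 and 4.18 RPKM for U251 (limma 0.62 ± 0.17, adjusted p = 0.098). IGF2BP2 and IGF2BP3, which bind IGF2 mRNA, had estimates of 0.49 ± 0.17 and 0.45 ± 0.18, and neither was called.

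Of 19 measured genes for proteases that cut IGFBPs and for their inhibitors, 12 were called higher in U87MG and 5 higher in U251 by limma, beside 21.6% and 27.0% of all genes, and none between the arms. PAPPA, the pappalysin that cuts IGFBP4 and was named after its values were seen, was at 11.98 and 10.6 RPKM for U87MG, against 1.45 and 2.74 RPKM for U251, higher in U87MG by 2.02 ± 0.21 (adjusted p = 0.00022 by limma). The line with more PAPPA was thus the line with nearly no IGFBP4 mRNA, and whether they are linked was not tested. STC2, an inhibitor of pappalysin, was at 15.3 and 23.6 RPKM for U87MG, against 5.35 and 10.97 RPKM for U251. STC1, another inhibitor of it, was at 194 and 142 RPKM for U87MG, against 17.8 and 19.6 RPKM for U251. The line with more PAPPA thus also had more of both inhibitors. MMP3, stromelysin 1, was at 143 and 590 RPKM for U87MG, against 0.523 and 0.881 RPKM for U251, and MMP2, gelatinase A, at 69.1 and 181 RPKM for U87MG, against 16.7 and 22.9 RPKM for U251. Neither was called between the arms (limma 1.17 ± 0.35, adjusted p = 0.114, and 0.90 ± 0.23, adjusted p = 0.0789). PRG2, the proform of which inhibits pappalysin, had 1 and 28 reads in U87MG and none in U251.

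**Figure D5:**
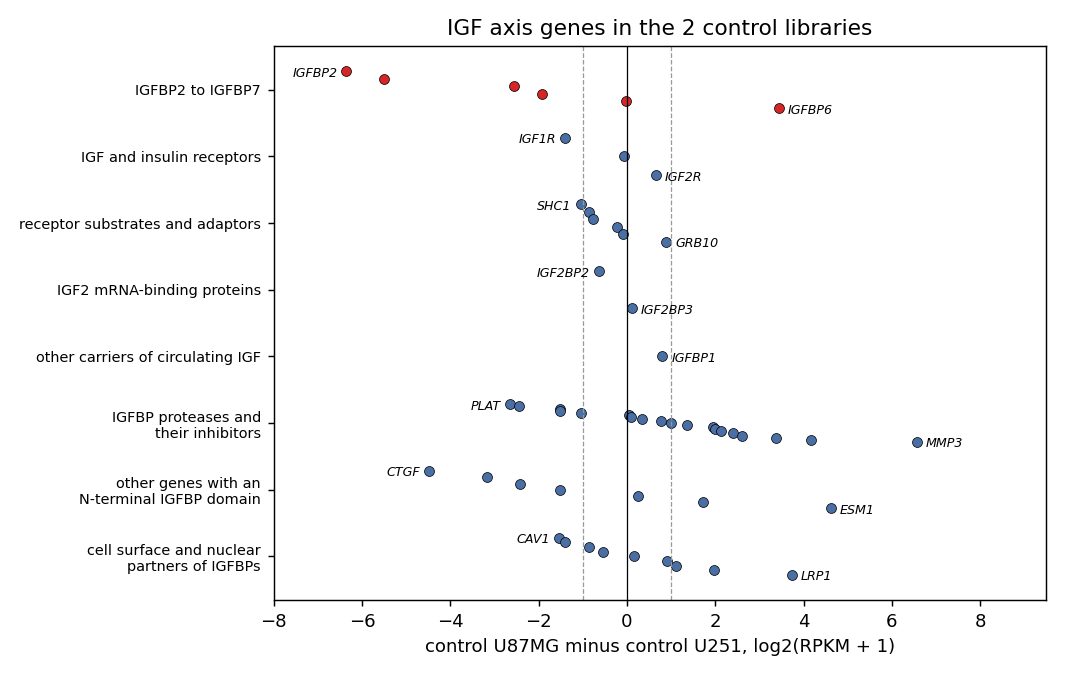
Difference between the control libraries, U87MG minus U251 on the log2(RPKM + 1) scale, with 1 point per gene in the IGFBP genes and each list, dashed lines at 2-fold and the outermost genes named. IGFBP2 (-6.35) is the lowest point and MMP3 the highest.

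Of 7 other measured genes with an N-terminal IGFBP domain, 4 were called lower and 2 higher in U87MG, beside 27.0% and 21.6% of all genes. In the knockdown 1 was called higher, beside 1.16% of all genes. That gene was CYR61, a matricellular integrin ligand, which rose, with 32.5 and 63.0 RPKM for U87MG and 302 and 736 RPKM for U251 (1.11 ± 0.16, adjusted p = 0.0211 by limma). CTGF, a relative of CYR61, was at 7.19 and 10.5 RPKM for U87MG, against 183 and 281 RPKM for U251 (0.55 ± 0.16, adjusted p = 0.107). HTRA1, a protease counted in both lists, was at 6.995 and 13.4 RPKM for U87MG, against 22.0 and 24.7 RPKM for U251. ESM1, encoding endocan, had 25.8 and 0.848 RPKM for U87MG, from 1417 and 46 reads, and under 0.1 RPKM in U251.

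Among 9 measured partners of IGFBPs at the cell surface or in the nucleus, ITGB3, the integrin beta 3 subunit, rose, with 27.8 and 65.6 RPKM for U87MG and 6.39 and 12.03 RPKM for U251 (1.014 ± 0.18, adjusted p = 0.0288 by limma). Its partner ITGAV was at 23.8 and 25.9 RPKM for U87MG, against 64.8 and 34.6 RPKM for U251, and was not called. ITGA5, the integrin alpha 5 subunit, was at 65.3 and 91.0 RPKM for U87MG, against 29.6 and 40.2 RPKM for U251. RXRA, a nuclear partner of IGFBP3, was at 1.12 and 0.884 RPKM for U87MG, against 2.11 and 0.964 RPKM for U251. The calls for CYR61 and ITGB3 depend on the scaling: after trimmed-mean rescaling of the libraries neither passed (adjusted p = 0.0607 and 0.0743), with estimates of 1.17 and 1.07. Neither passed without the filter on low values (adjusted p = 0.416 by limma for both) or without the line block (0.9998), and ITGB3 did not pass without the intensity trend (0.052).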

How the data were processed

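Poly(A) RNA of 4 libraries was sequenced paired-end and the authors deposited RPKM values per gene, scaled by gene model length and library size. Per the submitters' processing notes, Bowtie 0.12.2 and hg19 were used. Counting program, annotation and strand setting were not given in the sources used here. Groups follow the sample titles.

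The members and lists were chosen with earlier results of these data known. Reads were recovered as whole multiples of the value of 1 read: relative depth from 2062 low genes, absolute depth from miRNA hairpin lengths (279 of 286 gave the same total), within 0.0001 reads for all named genes above 0. They are the smallest whole numbers that fit. Ratios within a line or between controls are RPKM ratios with 95% Clopper-Pearson intervals, or log2(RPKM + 1) differences. Genes needed 1 RPKM in at least 1 library. limma 3.58.1 (R 4.3.3) was fitted to log2(RPKM + 1) of 16098 genes with line and arm as terms, an intensity trend, two-sided, Benjamini-Hochberg adjusted, with 1 residual degree of freedom per gene, and was tested on simulated data. With 1 library per line and arm, its residual is the difference between the lines in knockdown ratio, moderated over genes. That difference may be technical in part. No label names separate cultures, so the limma p-values do not measure variation between cultures. Named genes were all members, SRSF1, 3 nearest profiles per member and up to 4 per list by the larger absolute ratio. IGF ligands and the 2 IGF axis genes called in the knockdown were named too. Not every gene behind a small count between the lines was named. PAPPA, STC1, IRS1, MMP14, C1R, POLR2B, LOC255130 and the markers given with values were named outside that rule. Promoters came from RefSeq for 5 of the 6 members, and the planned protein features were not analysed here. Alternatives were a pseudocount of 0.1, trimmed-mean and quantile scaling, no filter, no trend, no line block and no arm covariate. Python 3.11.15 was used.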

Additional observations from a re-analysis of the deposited data

Results flagged for a closer look

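In 8 of the IGFBP and other IGF axis genes that reached 1 RPKM, the ratio of knockdown to control was above 1 in one line and below 1 in the other, each beyond counting error. The share of all genes meeting this rule was not computed, so the count is not read as a trait of the IGF axis. A stricter rule, opposite signs with each log2 ratio at least 0.4 from 0, held for 1.24% of all genes tested. Of the 8 only IGFBP6 meets it. The difference between the lines was not tested for any of them, for lack of replicates. IGFBP6 had a log2 ratio in U87MG minus that in U251 of -1.74 (-0.44 and 1.29). PAPPA differed by -0.767 in the same direction (-0.16 and 0.61), STC1, encoding a secreted inhibitor of PAPPA, by -0.575 (-0.44 and 0.13), the receptor substrate gene IRS1 by -0.462 (-0.19 and 0.27) and the membrane protease gene MMP14 by -0.407 (-0.11 and 0.29). INSR differed by 0.728 in the other direction (0.23 and -0.50), ITGAV by 1.001 (0.12 and -0.88) and the complement protease gene C1R by 0.713 (0.28 and -0.44, the latter from 31 and 17 reads). The smaller ratios, such as those of MMP14 and PAPPA in U87MG, may change sign with the scaling of the libraries. Trimmed-mean shifts on the log2 scale were 0.0296 for the U87MG control and -0.0808 for the U87MG knockdown. IGFBP6 kept opposite signs after that rescaling (-0.33 and 1.30), and the other 7 are not given rescaled.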

How the results depend on the processing

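Within a line and between the controls, the counts of IGFBP genes past 2-fold kept their values under a pseudocount of 0.1, trimmed-mean rescaling, quantile normalization and no filter, with 1 exception. With a pseudocount of 0.1, 1 IGFBP gene (IGFBP7) was at least 2-fold lower in the U87MG knockdown, where the pseudocount of 1 had damped its ratio. Among the IGF axis genes called higher across the lines, 2 in the main analysis, 1 was left without the intensity trend and 0 after trimmed-mean rescaling, without the filter on low values and without the cell line block. Over all genes these settings gave 88 higher and 172 lower calls (no trend), 6 and 6 (trimmed-mean rescaling), 0 and 0 (no filter) and 0 and 0 (no block), against 186 and 420, so the calls across the lines depend on these settings, and the cause was not tested. The counts called between the lines kept within 1.5 times under all alternatives run. No IGFBP ratio past 2-fold changed sign, nor did the estimates of CYR61 and ITGB3. The cell line block is the pairing of knockdown with control, and the labels carry no replicate numbers that would give another. Leaving a library out was not run, because it leaves no residual degree of freedom. Depth limits IGFBP2, IGFBP4 and IGFBP5 in U87MG, which had 2 to 12 reads per library.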
